A study of Mus musculus with 6 samples.

Results

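The cytosolic heat shock proteins and their transcription factor HSF1 were followed on 6 arrays of C2C12, an established mouse myoblast line, that is, of dividing precursors of skeletal muscle. The 10 genes were Hsf1, Hspa8, Hsph1, Dnaja1, Dnajb1, Hsp90aa1, Hsp90ab1, Hspb1, Hspb8 and Cryab, and their probe sets were taken wherever the platform annotation gave exactly 1 of these genes. This gave 24 of the 34945 probe sets annotated to 1 gene, and they stood for 8 of the 10 genes. Hsf1 and Hsp90ab1 had no probe set of this kind and were not analysed here. Of the 24, 21 had a mean signal above the median of all probe sets (23.4) and were tested, and 3 dim ones, 2 of Hsp90aa1 and 1 of Cryab, are given by their values.

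All cells carried a tetracycline-inducible (Tet) integrin alpha7 construct and grew undifferentiated at 37 °C for 36 h in DMEM with 20% fetal bovine serum, chick embryo extract, glutamine, penicillin, streptomycin and kanamycin. The noninduced group (3 arrays) received no tetracycline and the induced group (3 arrays) received 1 µg/ml, and the question was what added integrin alpha7 does to myoblast transcription. The triplicates are described by the submitters as biological, and the sources used here do not say whether the line is 1 clone, or which promoter and species the construct has. No heat or other proteotoxic treatment is named for any sample. The values are signal intensities that were scaled to a common level on every array, so they are relative to the whole array; precision is limited by the array number.

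Heat shock proteins are chaperones: they bind unfolded segments of other proteins and help them to fold, or hold them until they can be refolded or degraded. HSP70 proteins such as HSPA8 work in cycles of ATP binding and hydrolysis that J-domain proteins start and exchange factors such as HSPH1 reset, HSP90 completes the maturation of kinases and receptors, and small heat shock proteins hold unfolding proteins in an ATP-independent way. When unfolded proteins accumulate, HSF1 forms trimers, binds heat shock elements, which are inverted repeats of the unit nGAAn, and raises transcription of many of these genes. In muscle, the small heat shock proteins HSPB1, HSPB8 and CRYAB are abundant and guard the cytoskeleton and the Z-disc.

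Promoter sequences show where the letters of this element stand in front of the listed starts of the genes. RefSeq sequences of build GRCm38.p6 were at hand for 5 of the 10 genes, and the 250 bases before each start were searched for an inverted pair of units, TTCNNGAA or GAANNTTC, which read the same on both strands and overlap by 3 bases where units alternate. The 5 genes have 9 such windows, 1 for each listed start, and the pair was present in 4 of the 9, beside 12.8% of all 32851 windows of this length. The 4 were both windows of Hsph1, the only one of Hspb1 and 1 of the 3 of Dnaja1, whose other 2 held none. The windows of Hsph1 overlap and hold the same pair, so the 4 are not separate sites. By gene, 3 of 5 had a match. A gene with several windows has more chances of a match, and no share by gene was computed over all genes. The windows of the 3 genes with a match, each for the outermost start of its gene, are printed 5′ to 3′ with the matching letters in capitals.
Hspb1 (GRCm38.p6, chr5:135887669-135887918, strand +): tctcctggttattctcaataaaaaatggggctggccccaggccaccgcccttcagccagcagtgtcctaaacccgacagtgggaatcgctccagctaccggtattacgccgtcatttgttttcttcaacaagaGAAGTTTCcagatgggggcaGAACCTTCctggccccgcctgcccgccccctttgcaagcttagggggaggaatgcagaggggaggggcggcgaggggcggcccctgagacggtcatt
Hsph1 (GRCm38.p6, chr5:149636337-149636586, strand -): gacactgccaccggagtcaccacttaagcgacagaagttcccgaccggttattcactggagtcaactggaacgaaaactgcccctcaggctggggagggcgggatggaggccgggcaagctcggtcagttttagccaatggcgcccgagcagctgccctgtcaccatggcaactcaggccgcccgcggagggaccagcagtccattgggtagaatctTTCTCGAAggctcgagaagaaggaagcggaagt
Dnaja1 (GRCm38.p6, chr4:40722218-40722467, strand +): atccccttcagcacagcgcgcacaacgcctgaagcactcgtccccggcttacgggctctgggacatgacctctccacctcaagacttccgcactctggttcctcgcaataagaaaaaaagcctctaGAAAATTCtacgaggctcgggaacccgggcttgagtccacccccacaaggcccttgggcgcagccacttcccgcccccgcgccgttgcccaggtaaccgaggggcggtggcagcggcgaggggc
Hspb1 held 2 pairs, whose first bases lay at -117 and -97 from the start, Hsph1 held 1 at -33 and Dnaja1 1 at -124. The windows of Dnajb1 and Hspb8 held none, which says only that these letters are not there. A window of Dnajb1 (chr8:83608298-83608547) lies downstream of the gene's outermost start, and so do the Dnaja1 windows without a pair. No member window held 3 alternating units in a row (TTCNNGAANNTTC on either strand), a run present in 0.466% of all windows. For comparison, a stretch of the Hspe1 promoter, the gene of the mitochondrial cochaperonin, carries such a run, which also lies in a window of its neighbour Hspd1.
Hspe1 (GRCm38.p6, chr1:55088053-55088082, strand +, positions -95 to -66): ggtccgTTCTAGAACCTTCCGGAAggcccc
A match is a description of letters and no measurement of HSF1 binding.

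None of the 21 tested probe sets of heat shock proteins passed the test between the groups. In limma 0 of 21 had an adjusted p under 0.05, against 0.200% of all 22518 tested probe sets (0.120% higher and 0.0799% lower on the induced arrays), and the lowest adjusted p among the 21 was 0.104. At an unadjusted p under 0.05 there were 3 of 21, or 14.3%, beside 14.7% of all tested. The groups did not overlap in 4 of the 21 (19.0%), all lower on the induced arrays, beside 20.3% of all tested probe sets in either direction (9.65% higher and 10.6% lower). The share with no overlap is thus near that of all tested probe sets, and 4 probe sets are too few to read a direction from. The median log2 fold change of the 21 was -0.026 (range -0.27 to 0.20) and that of all tested probe sets was -0.010. In bulk RNA, fewer cells of a type and less RNA per cell cannot be told apart.

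In the main limma fit the intervals of nearly all of these probe sets left no room for a large change. The 95% interval of the fold change lay wholly within 1.5-fold in either direction for 20 of the 21 (95.2%), and for 79.5% of all tested probe sets. The exception was 1456434_x_at of Hspb8, with a lower bound of -0.67 on the log2 scale. In the alternative fits, which the closing section names, the number within 1.5-fold was 18 to 21. Such intervals reflect the spread between arrays and do not cover an effect of processing order. The median SE was 0.0674 for the 21 and 0.117 for all tested probe sets. Of the 21 log2 fold changes, 6 were positive and 15 negative, beside 47.4% positive among all tested probe sets. Centring the arrays on their medians moved the median of all tested probe sets to 0.083 and that of the 21 to 0.067 and made 15 of the 21 positive, so the sign of the small differences rests on the scaling.

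**Figure D1:**
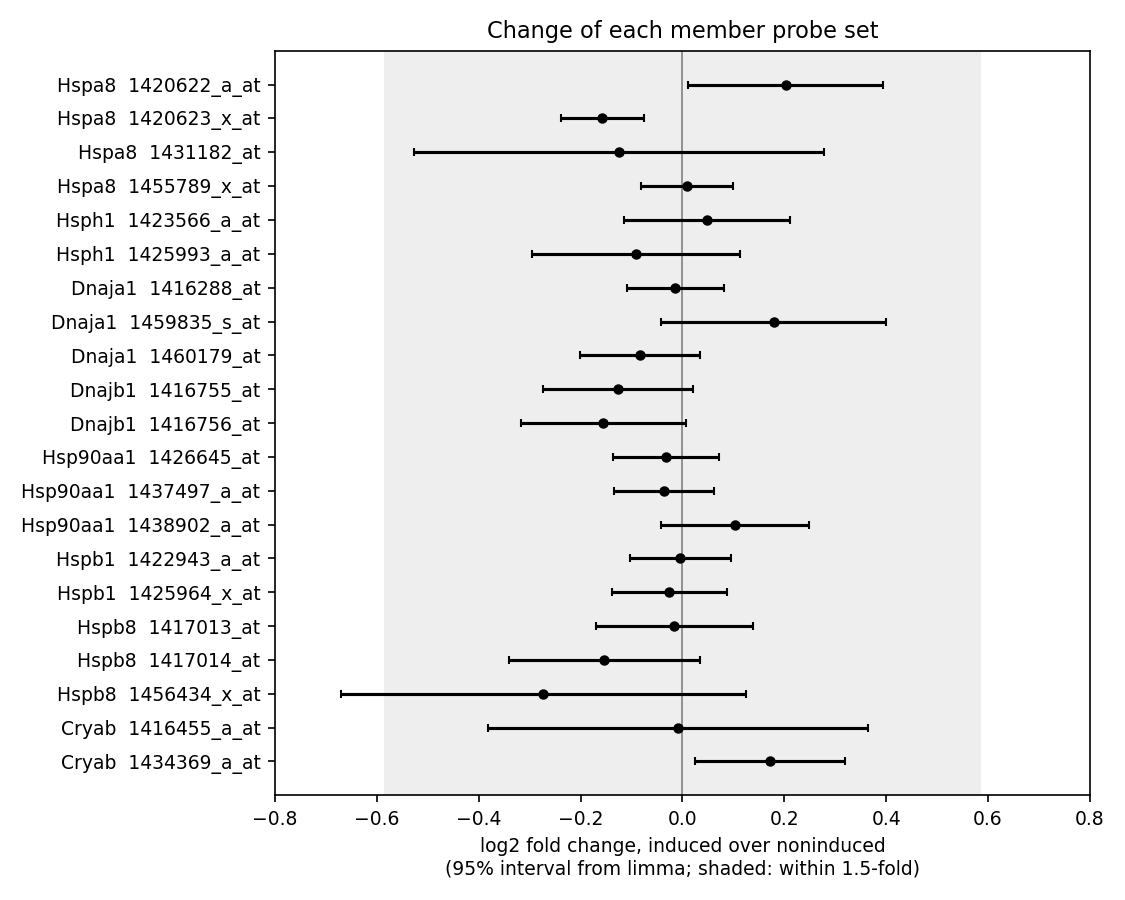
Log2 fold change of each tested probe set, induced over noninduced (x axis), with its 95% interval from limma (3 arrays a group); rows are gene and probe set, and the shading spans 1.5-fold in either direction. Of the 21 intervals, 20 lie inside the shading, and the lower end of Hspb8 1456434_x_at, at -0.67, lies outside.

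The arrays themselves set the following frame. The median signal lay between 24.99 and 27.7 on the noninduced arrays and between 22.9 and 24.9 on the induced ones. By their recorded hybridization times, all noninduced arrays were placed in a fluidics run with induced replicate 1, and induced replicates 2 and 3 in another run. The runs are thus inferred from these times. Scans of noninduced arrays all preceded those of induced arrays, and the effect of this order cannot be told apart from that of the group. Itga7 itself, the gene to be raised, was at 792 ± 17.2 on the noninduced and 693 ± 29.9 on the induced arrays (SD, n = 3 each; log2 fold change -0.19, limma adjusted p = 0.181), so this probe set went against the label, and whether it reads the construct's transcript was not tested. Throughout, "induced" means an array labelled induced. Over all genes 45 probe sets passed, 27 higher and 18 lower. The number was 50, 1 and 8 without noninduced replicates 1, 2 and 3 in turn. Without induced replicates 1, 2 and 3 in turn it was 0, 11 and 49. After median centring 306 passed, 294 of them higher. Of the 8 myoblast genes 6 lay above the signal filter, with mean signals on the noninduced arrays from 324 (Vcam1) to 2411 (Chrna1) and 805 for Myod1, and Pax7 (14.0) and Msc (12.1) lay below it, while 9 of 12 genes of differentiated muscle, 5 of 6 of fibroblasts, all 4 of adipocytes, 4 of 5 of endothelium and 2 of 5 of leukocytes lay below the signal filter. No marker passed the test (limma, adjusted p under 0.05), and the summed signal of the myoblast genes was 6221 to 6315 on the noninduced and 5892 to 6147 on the induced arrays.

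**Figure D2:**
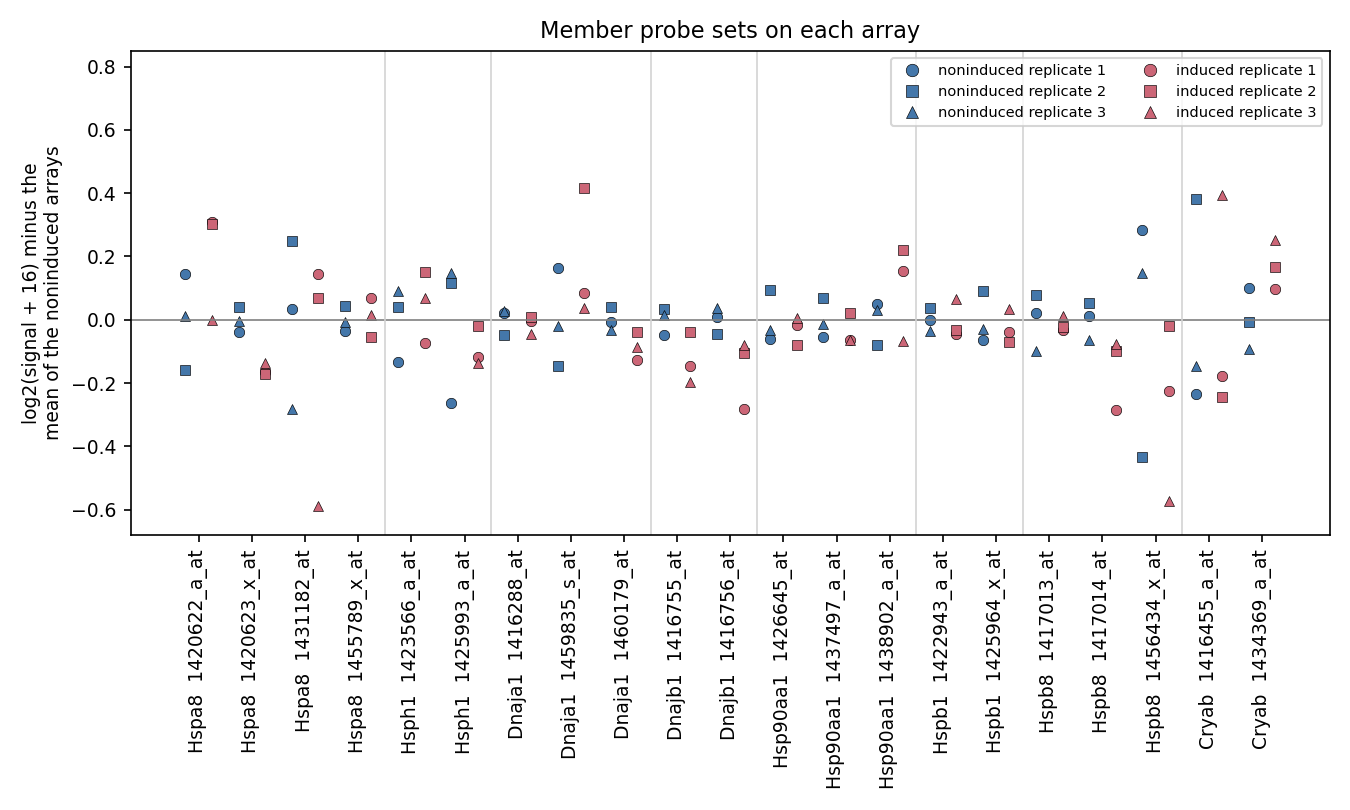
Each tested probe set on each array, as log2(signal + 16) minus the mean of the 3 noninduced arrays (y axis); blue points are noninduced and red points induced arrays, with circles, squares and triangles for replicates 1, 2 and 3. Noninduced replicate 2 and induced replicate 3 lie together and high for Cryab 1416455_a_at, at 777 and 785, and together and low for Hspb8 1456434_x_at, at 114 and 102.

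Hspa8, the constitutive cytosolic HSP70, had 4 tested probe sets that did not move alike. On noninduced replicates 1, 2 and 3 probe set 1420623_x_at gave 9103, 9621 and 9326, and on induced replicates 1, 2 and 3 it gave 8339.6, 8299 and 8511. The groups did not overlap, and every induced array was lower (log2 fold change -0.16, SE 0.0371, 95% interval -0.24 to -0.076, limma adjusted p = 0.104; exact two-sided permutation p = 0.1, the smallest that 3 against 3 arrays allow). This was the lowest adjusted p of all heat shock probe sets and it did not pass. Another probe set of the gene, 1420622_a_at, gave 3029, 2455 and 2765 against 3394, 3386 and 2736. Induced replicates 1 and 2 were the highest and induced replicate 3 lay among the noninduced arrays (log2 fold change 0.20, SE 0.0879, 95% interval 0.012 to 0.39, limma adjusted p = 0.313). When noninduced replicate 2 was left out the value fell to 0.12, and when induced replicate 3 was left out it reached 0.31. Probe set 1455789_x_at overlapped between the groups, with 10282, 10871 and 10504 on the noninduced and 11059, 10158 and 10664 on the induced arrays (log2 fold change 0.0097, SE 0.0413, 95% interval -0.080 to 0.10, limma adjusted p = 0.941). The dimmest, 1431182_at, lay between 97.4 and 186 over all arrays, and its groups overlapped, with induced replicate 3 the lowest array (log2 fold change -0.13).

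The opposite signs within Hspa8 were compared array by array. The log2 difference between 1420622_a_at and 1420623_x_at was 0.36 larger on the induced arrays, with an exact permutation p of 0.2. Over all 19 pairs of tested probe sets of 1 gene, 2 pairs reached 0.1, the smallest possible p: 1420623_x_at against 1455789_x_at of Hspa8 (-0.17), and 1417013_at against 1417014_at of Hspb8 (0.14). Without a group difference a pair reaches this p with a probability of 0.1, so 2 of 19 pairs is no sign that probe sets disagree. Pairs of other genes were not examined. An x in the name of a probe set marks probes that may also bind other transcripts. Hspa8 has many processed pseudogenes, so which transcripts its signals hold is uncertain.

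Hsph1, the HSP110 exchange factor that releases ADP from HSP70, overlapped between the groups with both probe sets. Its probe set 1423566_a_at gave 795, 898 and 931 on the noninduced and 829, 970.3 and 918 on the induced arrays. For 1425993_a_at the signals were 837, 1092 and 1116 and 926, 993 and 915. In both, noninduced replicate 1 was the lowest of all 6 arrays and the induced arrays lay within the noninduced range or just above it. The fold changes had opposite signs, 0.049 (limma adjusted p = 0.809) and -0.091 (limma adjusted p = 0.696).

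J-domain proteins hand unfolded proteins to HSP70 and trigger its ATPase. Dnajb1, a strongly heat-inducible class B member, had a negative log2 fold change with both probe sets, neither past the test. With 1416756_at it gave 442, 425 and 451 on the noninduced and 358, 407 and 415 on the induced arrays. No induced array reached a noninduced one, although the difference did not pass (log2 fold change -0.16, SE 0.0744, 95% interval -0.32 to 0.0073, limma adjusted p = 0.363; exact permutation p = 0.1). With 1416755_at the signals were 496, 526 and 519 against 463, 499 and 446. Here induced replicate 2 lay just above noninduced replicate 1, so the groups overlapped (log2 fold change -0.13, SE 0.0674, 95% interval -0.27 to 0.020, limma adjusted p = 0.409). Within the first fluidics run, which holds induced replicate 1 and all noninduced arrays, the log2 fold change was -0.28 for 1416756_at and -0.15 for 1416755_at. Without induced replicate 1 it was -0.092 for 1416756_at.

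Dnaja1, the class A partner of HSPA8, had its steadiest values with its brightest probe set. Probe set 1416288_at gave 2948, 2809 and 2961 on the noninduced and 2899, 2920.2 and 2814 on the induced arrays (log2 fold change -0.014, SE 0.0438, 95% interval -0.11 to 0.082, limma adjusted p = 0.917). Its 6 values spanned only 2809 to 2961, the lowest on noninduced replicate 2 and induced replicate 3. Probe set 1460179_at was lower on every induced array, 999, 1034 and 982 against 918, 978 and 946, with a log2 fold change of -0.084 (limma adjusted p = 0.502). Probe set 1459835_s_at gave 821, 659 and 720.3 against 776, 979.7 and 749, where induced replicate 2 stood above all other arrays and the rest overlapped (log2 fold change 0.18, limma adjusted p = 0.442). Without that array the value was 0.061, and without noninduced replicate 2 it was 0.11.

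Hsp90aa1, the stress-inducible cytosolic HSP90, had 3 bright probe sets, none past the test. The signals of 1426645_at were 6031, 6719 and 6158 on the noninduced and 6217, 5950.2 and 6314 on the induced arrays. Those of 1437497_a_at were 5649.9, 6147 and 5812 and 5609, 5959 and 5606. Both sets of groups overlapped, and the log2 fold changes were -0.032 (95% interval -0.14 to 0.072) and -0.036 (-0.13 to 0.062), with limma adjusted p-values of 0.803 and 0.761. The remaining one, 1438902_a_at, gave 5765, 5265 and 5692 against 6205, 6492 and 5319, with induced replicates 1 and 2 on top and induced replicate 3 near the bottom (log2 fold change 0.10, SE 0.0663, 95% interval -0.041 to 0.25, limma adjusted p = 0.500). Leaving out 1 array gave 0.045 (without induced replicate 2) to 0.19 (without induced replicate 3), and 0.063 without noninduced replicate 2. The dim probe sets 1433251_at and 1441827_x_at stayed between 3.61 and 28.8 and between 8.37 and 17.0, below the filter, and say little about the transcript.

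Hspb1, the small heat shock protein that guards actin filaments, had both fold changes near 0. Its probe set 1422943_a_at went from 3769 ± 96.7 to 3760.0 ± 159 (SD, n = 3 each), with 3767, 3867 and 3673 on the noninduced and 3653, 3684 and 3943 on the induced arrays. The 95% interval of its log2 fold change, -0.10 to 0.095, left room for a change of 1.07-fold at the upper end and 0.931-fold at the lower end. Probe set 1425964_x_at gave 2735, 3046 and 2803 and 2783, 2719 and 2924, and its groups overlapped as well (log2 fold change -0.026, limma adjusted p = 0.860).

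Hspb8, which works with BAG3 in the selective autophagy of damaged filamin, had 3 probe sets with negative values, none past the test. Probe set 1417013_at gave 414, 431 and 379.9 on the noninduced arrays and 398, 401 and 411 on the induced ones, which overlapped (log2 fold change -0.016). Probe set 1417014_at gave 268, 275 and 253 against 215, 247 and 251. All induced arrays were lower here, induced replicates 2 and 3 by little (log2 fold change -0.15, SE 0.0859, 95% interval -0.34 to 0.034, limma adjusted p = 0.435). Without induced replicate 1 it was -0.087. The dimmer 1456434_x_at gave 198, 114 and 178 against 134, 157 and 102, with the widest interval of the Hspb8 probe sets (-0.67 to 0.12, log2 fold change -0.27, limma adjusted p = 0.514). Leaving out noninduced replicate 2 gave -0.49, while leaving out noninduced replicate 1 gave -0.13 and induced replicate 3 gave -0.12.

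Cryab, alpha B-crystallin, a small heat shock protein of the muscle Z-disc that rises when myoblasts differentiate, was read differently by its probe sets. Probe set 1434369_a_at went from 729 ± 49.7 to 822 ± 45.0 (SD, n = 3 each), with 781, 724 and 682 on the noninduced and 779, 818 and 869 on the induced arrays. Noninduced replicate 1 lay just above induced replicate 1, so the groups touched (log2 fold change 0.17, SE 0.0673, 95% interval 0.025 to 0.32, limma adjusted p = 0.271). Probe set 1416455_a_at instead gave 502, 777 and 535 and 523, 499 and 785. It was high on noninduced replicate 2 and induced replicate 3 and between 499 and 535 on the other 4 arrays (log2 fold change -0.0087, SE 0.171, 95% interval -0.38 to 0.37, limma adjusted p = 0.988). The value was -0.21 without induced replicate 3 and 0.18 without noninduced replicate 2.

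The remaining Cryab probe set, 1435837_at, lay below the filter, with 8.54, 2.82 and 8.20 on the noninduced and 15.8, 19.9 and 16.1 on the induced arrays. The induced arrays were all higher, at signals under the median of all probe sets. With no filter its log2 fold change was 0.57 (limma adjusted p = 0.387). Of the 12 genes of differentiated muscle 3 lay above the filter. Myog, which marks the commitment to differentiate, had signals between 18.0 and 54.3. Acta1, skeletal alpha-actin, gave 167, 133 and 177 on the noninduced and 184, 189 and 203 on the induced arrays, without overlap (log2 fold change 0.25, limma adjusted p = 0.310), and Mylpf was at -0.067. The summed signal of the 12 genes ranged from 334 to 396 on the noninduced and from 333 to 361 on the induced arrays; the part of such genes in the Cryab values was not tested.

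**Figure D3:**
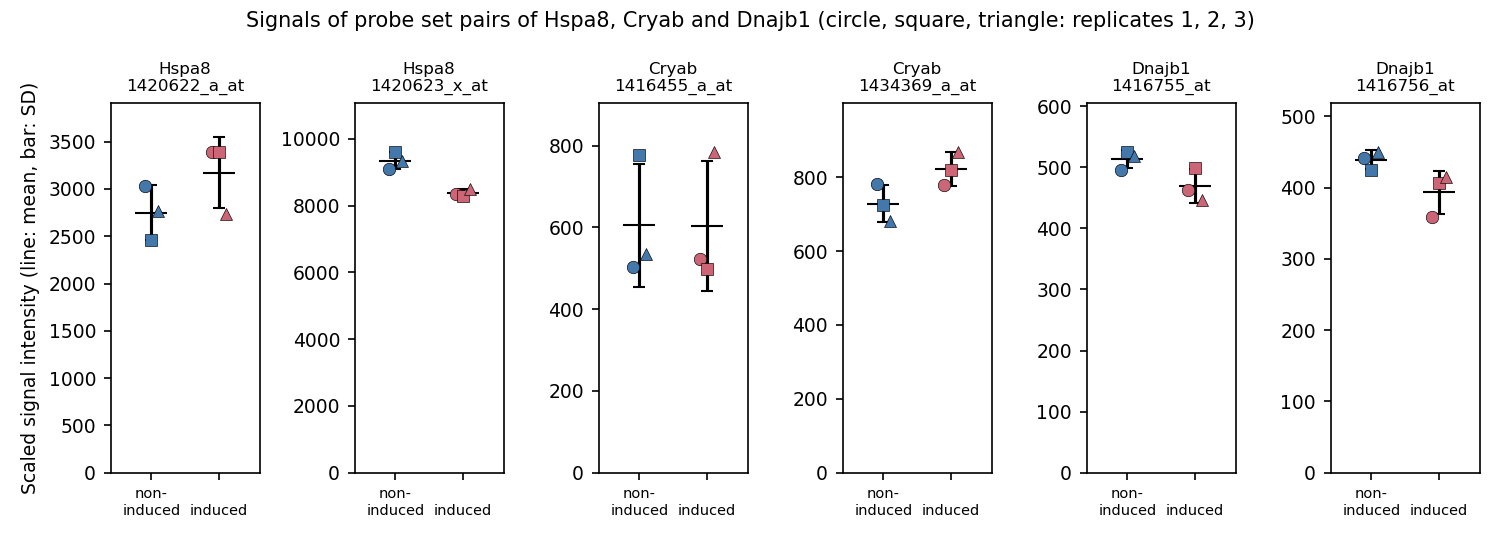
Scaled signal intensity (y axis, from 0) of pairs of probe sets of Hspa8, Cryab and Dnajb1 on the 3 noninduced (blue) and 3 induced (red) arrays; lines are means and bars SD (n = 3). The Hspa8 pair differs in direction, the first Cryab probe set is high on 1 array of each group (777 and 785), and both Dnajb1 probe sets are lower on the induced arrays without passing the test.

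Across the 6 arrays even probe sets of one gene varied together little. Pearson's r of the log2 values had a median of 0.14 over the 19 pairs within a gene and 0.093 over the 191 pairs between genes, as a description over 6 arrays that share 2 groups. Within genes r ran from -0.80 (Hspa8 1420622_a_at and 1420623_x_at) to 0.74 (the Hspb1 pair). The closest pair joined 2 genes, Hsp90aa1 1426645_at and Hspb1 1425964_x_at, at 0.97.

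The arrays that stood out for Cryab 1416455_a_at also stood apart in the whole data. The first principal component of all tested probe sets carried 29.6% of the variance and separated the groups, with noninduced replicate 2 farthest out (0.71). The second carried 19.8%. It placed noninduced replicate 2 (0.48) and induced replicate 3 (0.56) opposite noninduced replicates 1 (-0.51) and 3 (-0.43). Induced replicates 1 (-0.011) and 2 (-0.098) lay in between. Over the 6 arrays 6 of the 21 heat shock probe sets had an r above 0.7 in size with the second component. Among all tested probe sets this share was 12.5%. The component was examined after values were seen, and the 6 include Cryab 1416455_a_at and both Hspb1 probe sets. The 21 also had a smaller median SE than all tested probe sets (0.0674 against 0.117). The 2 shares thus show no trait of heat shock genes. The 6 were Cryab 1416455_a_at (0.90), Hspb1 1425964_x_at (0.81) and 1422943_a_at (0.74), Hsp90aa1 1426645_at (0.73), Dnaja1 1416288_at (-0.98) and Hspb8 1456434_x_at (-0.98). The second component separates arrays within both groups, and its part in the values of single probe sets was not tested.

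The genes most like the brightest probe set of Hsp90aa1, 1426645_at, over the 6 arrays were Edrf1, Nsf, Ankrd11, Tmem14a and Rab18 (Pearson's r 0.985 to 0.996). Those most like the brightest of Hsph1, 1425993_a_at, were Stag1, Efnb2, Clk4, Dis3l2 and Wdr77 (0.98 to 0.99). With 6 arrays such values are common: 200 of 19813 probe sets of other genes had an r above 0.9 with 1426645_at and 155 with 1425993_a_at. The likeness belongs to these probe sets and not to the genes. Within Hsp90aa1, 1426645_at had an r of -0.75 with 1438902_a_at and 0.44 with 1437497_a_at, and the Hsph1 pair had 0.66.

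No related chaperone or stress gene passed the test either. Over 7 lists of related genes 85 of 101 genes were tested, each by its brightest probe set, and 0 passed in limma, with 13 at an unadjusted p under 0.05 (15.3%, beside 14.7% of all tested probe sets). Their median log2 fold change was -0.017, and the groups did not overlap in 18 of 85 (21.2%, beside 20.3%). In the HSP70 and HSP110 family (8 tested, median 0.022), Hspa1b, the classical heat-inducible HSP70, was at -0.036 with its brightest probe set and at -0.17 and -0.13 with the others, the former without overlap (limma adjusted p = 0.340). Hspa1b shares nearly all of its sequence with Hspa1a. Hspa4l, an HSP110 relative, went from 483 ± 16.9 to 579.8 ± 67.7 (SD, n = 3 each), with no overlap between the groups (log2 fold change 0.25, limma adjusted p = 0.201). Without induced replicate 3 this was 0.16, and its other 4 probe sets lay between -0.055 and 0.076. Hspa12a, a distant HSP70 relative, was at 0.31 (limma adjusted p = 0.158), and its other 3 probe sets were at -0.024, 0.12 and -0.0021.

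None of the 15 J-domain genes passed (median -0.026): Dnajc21 was at 0.22, Dnajc13 at 0.14 and the bright Dnajc8 at -0.14. Their other probe sets were at 0.074 and, with a signal near the filter, 0.58 for Dnajc21, at 0.021 for Dnajc13 and, with the opposite sign, at 0.063 for Dnajc8. Of the other small heat shock proteins only 2 of 6 were bright enough to test, among them the muscle gene Hspb6 at 0.070. Of 26 cochaperones of HSP70 and HSP90 (median -0.022), Tomm34, which escorts mitochondrial precursors, was at -0.22 and Ttc1 at -0.18 (-0.27 with its other probe set), all without overlap and none past the test (limma adjusted p = 0.211, 0.222 and 0.181). Stip1, the HOP adaptor that joins HSP70 to HSP90, was at -0.061. In the TRiC chaperonin, which folds actin and tubulin, and its helper prefoldin (14 tested, median -0.023), the subunits Cct2 and Cct5 were at 0.050 and 0.021. The 2 other probe sets of Cct2 were at 0.25 (limma adjusted p = 0.164) and -0.036. Cct8 had no overlap, going from 2385 ± 43.8 to 2613 ± 57.4 (SD, n = 3 each) (log2 fold change 0.13, limma adjusted p = 0.209), and Vbp1, a prefoldin subunit, was at 0.086.

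Genes around HSF1 and its stress-inducible targets included Mt1 and Eef2k, with the largest log2 fold changes of the 85 related genes, again without a call. Of 9 HSF genes and regulators (median -0.0069), Hsf2, another heat shock factor, was dim, at 29.8 ± 2.73 to 22.1 ± 6.36 (SD, n = 3 each). Eef2k, the kinase that slows translation elongation, went from 190.1 ± 8.61 to 243 ± 6.96 (SD, n = 3 each), with no overlap and a log2 fold change of 0.33 (limma adjusted p = 0.118). It passed after median centring (limma adjusted p = 0.0468), and its other 2 probe sets were at 0.20 and 0.19. Of 22 stress-inducible targets (median -0.027), Mt1, a metal-binding metallothionein that several stress factors drive, gave 2835, 2086 and 1946 on the noninduced and 2992, 2809 and 2901 on the induced arrays. Noninduced replicate 1 lay among the induced arrays (log2 fold change 0.36, limma adjusted p = 0.163), and without it the gene passed (limma adjusted p = 0.00912). The growth arrest gene Gadd45g was at -0.26 with groups that did not overlap (limma adjusted p = 0.142). Hspd1 and Hspe1, the mitochondrial chaperonin pair, were at -0.023 and -0.0038. The other tested probe set of Hspe1 had no overlap between the groups and a log2 fold change of 0.26 (limma adjusted p = 0.118).

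**Figure D4:**
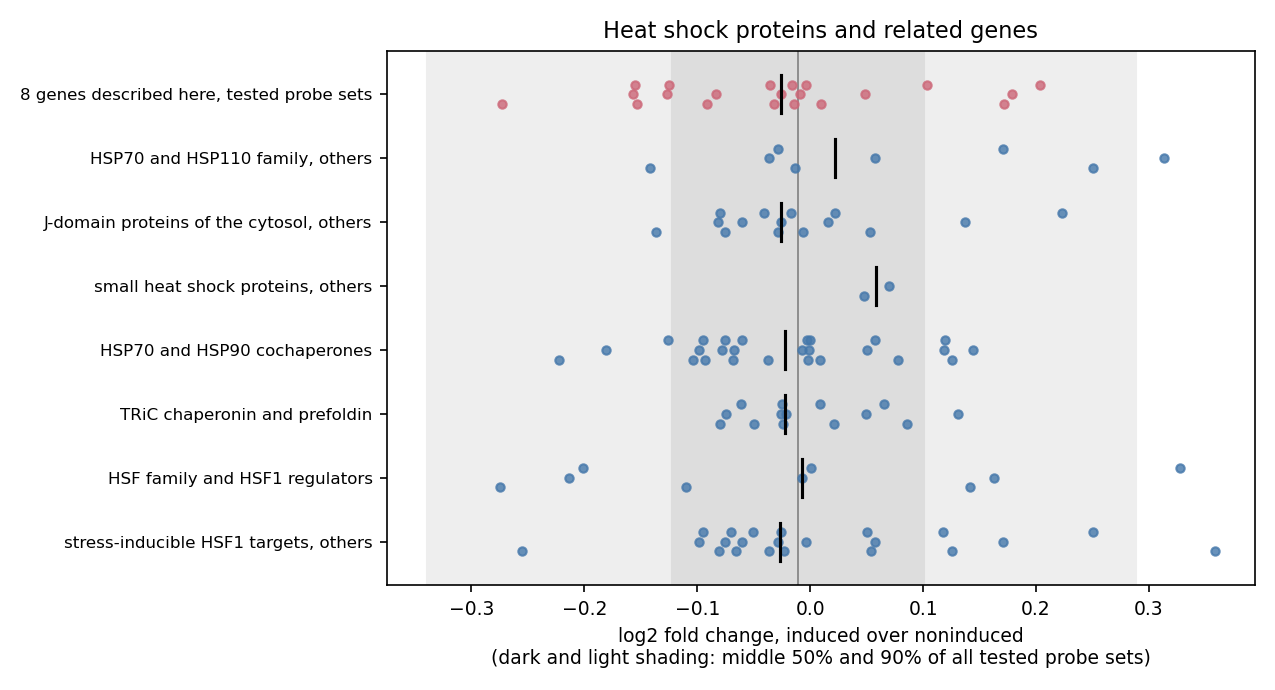
Log2 fold change, induced over noninduced (x axis), of the tested probe sets of the 8 heat shock genes (red) and of the tested genes of 7 related lists, each by its brightest probe set (blue); black bars are medians and the shading holds the middle 50% and 90% of all 22518 tested probe sets. The medians lie between -0.027 and 0.059, beside -0.010 for all tested probe sets.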

How the data were processed

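Each of the 6 Affymetrix Mouse430_2 arrays (chip type per the file headers) has 1 deposited linear signal intensity for each of 45101 probe sets. The authors used GCOS 1.1.1 for these values, per the submitters' processing notes; its settings are unknown here. After 2% was trimmed from both ends, the mean was 150.0 on all arrays. Hybridization times and scan order came from deposited instrument records (unit other), per the file headers. Fluidics runs were inferred from the hybridization times, with a new run begun at a long gap between them. Without 64 control probe sets, log2(signal + 16), which understates changes of dim probe sets, was fitted with limma 3.58.1 (R 4.3.3; lmFit and eBayes, trend on) for 22518 probe sets, those whose mean exceeded the median of all. P-values were adjusted over all of these by Benjamini-Hochberg, at a threshold of 0.05. Exact two-sided permutation tests were run in scipy 1.17.1, and the fit was tested on simulated data. By the platform annotation 34945 probe sets have 1 gene, 932 have several, and 9160 are unlisted.

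Members and lists were chosen with earlier results of these data known. Every probe set of every member is named; from related lists, examples are genes past the threshold, the 2 with the largest change and the 2 brightest; Itga7 checks the labels; likeness gives the 5 genes with the highest Pearson's r. Probe set pairs, the principal component and the correlations were added after values were seen. The closing section names the alternative settings, which include a block for the replicate number.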

Additional observations from a re-analysis of the deposited data

How the results depend on the processing

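No heat shock probe set passed in any of the 15 alternative fits. The number of all probe sets past the threshold was 306 after median centring, 1 with no filter on dim probe sets, 0 with no variance trend (2817 at an unadjusted p under 0.05), 0 with a block for the fluidics run (1923) and 0 in the first run alone (1976); in the last 2, induced replicate 1 is the only induced array that informs the contrast. It was 46 after quantile normalization and 43 and 49 with pseudocounts of 1 and 64. When 1 array was left out at a time, it was 0 to 50. With the replicate number as a block it was 5, 0 of them heat shock probe sets. Same-numbered arrays did not deviate together (r 0.01, -0.06 and -0.01). With 3 arrays a group this cannot show whether they were prepared as pairs. Of the related genes 1, Eef2k, passed after median centring, leaving out 1 array gave 0 to 1 (Mt1, without noninduced replicate 1), and averaging all probe sets of a gene gave 0. Several log2 fold changes changed sign. They were, after median centring, Hsph1 1425993_a_at 0.0019, Dnaja1 1416288_at 0.079, Dnaja1 1460179_at 0.0096, Hsp90aa1 1426645_at 0.062, Hsp90aa1 1437497_a_at 0.058, Hspb1 1422943_a_at 0.089, Hspb1 1425964_x_at 0.067, Hspb8 1417013_at 0.078, Cryab 1416455_a_at 0.085, Hspa1b 0.057, Stip1 0.033, Hspd1 0.070 and Hspe1 0.090; after quantile normalization, Hspe1 0.0021; and, both with a block for the fluidics run and in the first run alone, Hspa8 1431182_at 0.14 and Hsph1 1423566_a_at -0.074. Leaving out 1 array turned these, with their range: Cryab 1416455_a_at -0.21 to 0.18, Dnaja1 1416288_at -0.038 to 0.0021, Hsp90aa1 1426645_at -0.063 to 0.015, Hspa1b -0.13 to 0.072, Hspa8 1431182_at -0.27 to 0.11, Hspa8 1455789_x_at -0.019 to 0.042, Hspb1 1422943_a_at -0.039 to 0.016, Hspb1 1425964_x_at -0.057 to 0.020, Hspb8 1417013_at -0.065 to 0.023, Hspd1 -0.050 to 0.0068, Hspe1 -0.021 to 0.013 and Hsph1 1423566_a_at -0.017 to 0.11. With 3 arrays a group, changes smaller than the intervals given cannot be told from none, and signals near the filter hold little above background.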
